A study of Mus musculus with 24 samples.

Results

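Always-open regions at gene ends are stretches of chromatin that carried an ATAC-seq peak in every one of 24 macrophage libraries and whose midpoint lay within 1 kb of the start or the end of a RefSeq protein-coding gene. ATAC-seq reads out open chromatin through the Tn5 transposase, which cuts and tags DNA wherever it can reach it. Joining every pair of deposited peaks that shared 1 bp or more gave 102580 regions, of which 22770 were found in all 24 libraries. Of these always-open regions, 8489 lay at a gene end, 7805 lay inside a gene body farther from its ends and 6476 lay outside genes. The 8489 regions touched 9419 of the 21887 protein-coding genes in the table. They were chosen by the presence of a deposited peak in every library, so their presence is no result. A deposited peak had to pass the peak caller's cut, so regions weak in any library were left out. Beyond that cut, their level and the differences in level between groups were not used in the choice. The cells were bone marrow-derived macrophages of male C57Bl/6 mice, in 4 groups of 6 libraries. The groups were stimulated macrophages of diabetic mice, stimulated macrophages of control mice, unstimulated macrophages of diabetic mice and unstimulated macrophages of control mice. The diabetic mice had been given streptozotocin, which destroys pancreatic beta cells, so the model is one of insulin loss. Control mice are labelled wild type with no treatment. Stimulated cells received 100 ng/mL LPS, a bacterial cell wall lipid that activates Toll-like receptor 4, together with 10 ng/mL interferon gamma, a T and NK cell cytokine that activates macrophages. The labels used here give no age of the mice, and the length of stimulation is uncertain because the only time in the labels belongs to another stimulus. Nothing in the labels says that a replicate number marks a mouse, so p-values measure the spread between libraries.

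Most mammalian promoters stay free of nucleosomes whether or not their gene is strongly transcribed, because CpG-rich DNA and factors such as SP, ETS, NRF1 and NF-Y proteins hold them open. In macrophages the lineage factor PU.1 opens many further sites. Inflammatory signals then act through NF-kB, AP-1 and interferon regulatory factors, partly at promoters that were already open and partly at enhancers that open only after the signal. A promoter present in every library can therefore still gain or lose accessibility relative to other open sites, and that relative level is what is described here.

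The level of a region in a library was the highest fold among its peaks, the enrichment over the local background at the peak's summit that the authors' peak caller wrote. Folds depend on depth and on the whole library, so each was ranked within its library among the 22770 always-open regions, from percentile 0 (lowest) to 100 (highest). Differences between groups are given in percentile points with the standard error of limma, a linear model fitted over all 22770 regions, and called where the Benjamini-Hochberg adjusted p was under 0.05. Ranks within a library are relative, so a region can be called higher only against the other always-open regions.

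The promoters of 5 genes show the kinds of gene end that lie behind the results. Scfd1 had the highest mean level, Serpina3f and Camp were among the 3 largest increases after stimulation, and Tyk2 was among the 3 largest decreases. Ifit2, an antiviral effector, was added after its values were seen because its peak and its surroundings moved apart. The sequences are RefSeq windows of the GRCm38.p6 assembly, from 250 bases before to 50 bases after the gene start, read 5′ to 3′ on the strand of the gene. Capitals mark matches, on either strand, to any of 15 short motifs, and neighbouring or overlapping matches run together. The windows lie at chr12:51377263-51377562, plus strand, for Scfd1, at chr12:104214294-104214593, plus strand, for Serpina3f, at chr9:109849407-109849706, minus strand, for Camp, at chr9:21131226-21131525, minus strand, for Tyk2 and at chr19:34550444-34550743, plus strand, for Ifit2.
Scfd1: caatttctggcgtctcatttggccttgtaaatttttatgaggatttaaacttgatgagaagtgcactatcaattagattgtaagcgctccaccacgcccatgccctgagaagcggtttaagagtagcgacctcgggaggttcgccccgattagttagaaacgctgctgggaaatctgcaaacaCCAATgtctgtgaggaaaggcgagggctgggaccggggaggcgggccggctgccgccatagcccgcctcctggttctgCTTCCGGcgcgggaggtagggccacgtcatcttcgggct
Serpina3f: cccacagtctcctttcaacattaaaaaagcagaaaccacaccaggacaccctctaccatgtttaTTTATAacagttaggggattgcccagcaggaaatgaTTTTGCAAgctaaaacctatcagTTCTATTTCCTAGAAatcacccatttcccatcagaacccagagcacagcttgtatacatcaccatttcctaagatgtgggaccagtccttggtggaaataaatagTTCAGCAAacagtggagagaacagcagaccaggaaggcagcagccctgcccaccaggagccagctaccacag
Camp: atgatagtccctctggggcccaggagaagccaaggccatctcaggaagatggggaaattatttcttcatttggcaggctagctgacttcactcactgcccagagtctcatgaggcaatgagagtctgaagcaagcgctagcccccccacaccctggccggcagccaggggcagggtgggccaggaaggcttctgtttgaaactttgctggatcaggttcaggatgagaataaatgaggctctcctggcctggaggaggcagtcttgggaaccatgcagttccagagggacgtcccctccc
Tyk2: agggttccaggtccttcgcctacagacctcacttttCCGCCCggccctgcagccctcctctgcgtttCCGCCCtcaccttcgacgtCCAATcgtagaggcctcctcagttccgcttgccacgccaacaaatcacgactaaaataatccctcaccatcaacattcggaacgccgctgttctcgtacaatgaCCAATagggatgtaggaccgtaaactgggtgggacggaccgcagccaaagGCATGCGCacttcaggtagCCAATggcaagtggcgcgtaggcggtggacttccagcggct
Ifit2: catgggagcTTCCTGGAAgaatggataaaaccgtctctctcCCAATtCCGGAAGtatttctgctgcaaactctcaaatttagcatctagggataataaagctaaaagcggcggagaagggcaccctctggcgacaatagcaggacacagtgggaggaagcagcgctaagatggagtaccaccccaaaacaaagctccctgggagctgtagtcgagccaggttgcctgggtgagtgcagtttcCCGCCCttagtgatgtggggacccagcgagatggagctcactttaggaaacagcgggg

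The Scfd1 window held 1 ETS match and 1 NF-Y match, with a GC content of 55.3%. In the printed Serpina3f window, which has no CpG dinucleotide, a match to the interferon-stimulated response element (ISRE) overlaps one to the gamma-activated sequence (GAS), beside C/EBP matches and a TATA box. A second Serpina3f window, at chr12:104214383-104214682, held the ISRE, GAS and C/EBP matches but no TATA box, and its observed over expected CpG ratio was 0.058. The Camp window held none of the 15 motifs. Tyk2 shows the CpG-rich kind, with 3 NF-Y, 2 SP/KLF and 1 NRF1 match. The printed Ifit2 window held 1 match each for GAS, NF-Y, ETS and SP/KLF. A second Ifit2 window, at chr19:34550838-34551137, held only 1 NF-Y match. These are matches of letters only.

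A library's list had 41385 to 61861 peaks. No read total was at hand, and the lowest background level of a library, between 0.664 and 1.01 tags, stood in for relative depth. Of 12 macrophage markers, 8 had an always-open gene end, against 43.0% of all protein-coding genes. Among the 8 were Adgre1, Cd68, Itgam, Mertk, Fcgr1, Cd14 and Cebpa. Of the other macrophage markers, Csf1r and Lyz2 had a gene-end peak in 18 libraries, Spi1 in 21 and Aif1 in 0. Camp was the only 1 of 7 neutrophil markers with a member, and 1 of 5 erythroid markers had one, while T and NK cell, B cell, and stromal and endothelial markers had 0. Outside the members, Cd4 had a gene-end peak in 23 libraries, S100a8 and Hbb-bt in 22, Col1a1 in 20, Klrb1c in 14 and Ebf1 in 12. Cdh5 had one in 3 libraries and Pecam1 in 2. The other markers of these cell types, among them Cd3e, Cd79a, Ly6g, Elane and Mpo, had one in 0. Several libraries stood apart. Stimulated diabetic replicate 5 and stimulated control replicate 6 had the highest median member percentiles, 69.2 and 65.4. Stimulated diabetic replicates 1, 3 and 6, at 54.2, 54.9 and 53.3, fell within the range of unstimulated libraries.

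Gene ends ranked higher than the other always-open regions in every library. The median percentile of the members lay between 52.8 and 69.2 over the 24 libraries, against 38.1 to 46.9 for always-open regions inside gene bodies and 40.5 to 50.3 for those outside genes. The members exceeded the other always-open regions by 12.2 ± 6.6 percentile points (SD, n = 24 libraries), higher in 24 of 24, with a two-sided sign-flip permutation p of 1e-05, the smallest that 100000 resamples can give. The peaks of the members also covered more bases. Width was summed over all peaks of a region in a library. Its median was between 594 and 777 bp per library for members, against 371 to 461 bp for the other always-open regions. The mean difference was 233 ± 25 bp (SD, n = 24), with a sign-flip permutation p of 1e-05. Wider single peaks are not shown by this sum. The level was the highest fold among a region's peaks, so the rank, like the summed width, can depend on how many peaks a region holds. Of the 22770 always-open regions, 13440 had 1 peak in every library, and 3635 of these were members (42.8% of all members). The merged regions had a median width of 934 bp for members and 629 bp for the other always-open regions. The part of the number of peaks per region and of region width in the rank and width differences was not tested.

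Of the members whose nearest gene had a known strand, 96.3% (6654) had a gene start as their nearest end, against 258 with the other end of a gene. The kinds differed in level. Members at gene starts had a median mean percentile of 58.0 and a median summed peak width of 657 bp, against 38.9 and 425 bp for members at the other end. In each of the 24 libraries gene starts ranked higher, by 19.8 ± 5.3 percentile points (SD, permutation p = 1e-05). A second gene within 1 kb, as at a bidirectional promoter, went with little difference, since the 1378 members with 2 or more genes had a median mean percentile of 59.1, against 56.4 for the 7111 members with 1 gene. The median distance between a member's midpoint and the nearest gene end was 159 bp.

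Promoter windows could be set against 6398 of the 8489 members, through 8056 windows of the 21263 in the RefSeq table. Member windows had a median GC content of 62.3%, against 56.3% for all windows and 51.0% for windows outside every always-open region. Their observed over expected CpG ratio was 0.818, against 0.567 and 0.274. A ratio above 0.6, a usual mark of a CpG island, was reached by 83.9% of member windows and 47.6% of all windows.

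Motifs of general promoter factors had higher shares in member windows than in all windows. The ETS motif CCGGAAG was in 22.6% of member windows and 11.6% of all windows. The SP/KLF motif GGGCGG was in 71% of member windows and 46.2% of all windows, the NRF1 motif GCGCATGC in 6.65% of member windows and 3.52% of all windows, the YY1 motif AAGATGGC in 5.62% of member windows and 3.05% of all windows and the CREB/ATF motif TGACGTCA in 3.98% of member windows and 2.23% of all windows. The E-box CACGTG followed with 11.2% of member windows and 7.83% of all windows, and the ZNF143 motif CTACAATTC with 0.931% of member windows and 0.489% of all windows. Motifs of signal-dependent factors had other shares. The AP-1 motif TGANTCA was in 3.97% of member windows and 6.99% of all windows, the ISRE GAAANNGAA in 6.43% of member windows and 8.15% of all windows, the GAS TTCNNNGAA in 6.32% of member windows and 7.69% of all windows and the C/EBP motif TTGCNNAA in 7.31% of member windows and 10.2% of all windows. The NF-kB motif GGGANTTCC was in 2.71% of member windows and 1.84% of all windows, and the PU.1 motif GAGGAAGT in 3.09% of member windows and 3.13% of all windows. The TATA box TATAAA was in 5.57% of member windows and 12.6% of all windows. The NF-Y motif CCAAT was in 40.6% of member windows and 38.2% of all windows. Windows of several starts of a gene overlap and are not independent, so these shares carry no test. Among members, those with a CCAAT ranked highest of the common motifs, with a median mean percentile of 67.2, against 54.4 for those without, and the 60 members with a ZNF143 match reached 71.3.

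The highest mean folds belonged to Scfd1/G2e3 (Scfd1 acts in vesicle traffic), Cenpf (a kinetochore protein), Rfwd3, Styx, Otud6b, Zbed5, Ppp6c (a phosphatase subunit), Elac2 (which trims tRNA precursors), Ltn1/Rwdd2b (ribosome quality control) and Ndufab1 (mitochondrial acyl carrier protein). The Scfd1/G2e3 region at chr12:51377203-51378031 had a lowest, median and highest fold of 14.5, 19.5 and 22.7 over the 24 libraries and never ranked below percentile 98.8. Otud6b, which encodes a deubiquitinase, had the smallest spread of rank, with an SD of 0.27 percentile points, followed by Cenpf, Scfd1/G2e3, Polr3k and Ltn1/Rwdd2b at up to 0.333. The scale has an upper end, since the highest fold of a library was between 21.1 and 25.7, and ranks near the top have little room to vary. In all, 160 members were in the top 10% in each of the 24 libraries and 1028 lay below percentile 50 in each. The median SD within groups was 6.88 percentile points for the 2122 members with the highest mean percentiles (above 76.8) and 14.3 for the 2122 with mean percentiles between 34.1 and 56.8.

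At the threshold of the choice, the weakest members were Ccdc59, Olfml3 and Slc6a12, whose lowest −log10 q-values were 1.74, 1.9 and 1.98. Just outside it were 526 gene-end regions with a peak in 23 libraries. The strongest of these were Ncf4 (a NADPH oxidase subunit), Gsg1l and Ms4a7, with median −log10 q-values of 22.9, 21.6 and 20.04, and each lacked a peak in 1 stimulated control library. A stimulated control library lacked from 11 to 79 of the 526 regions, and an unstimulated control library from 4 to 22. A stimulated diabetic library lacked from 2 to 39, and an unstimulated diabetic library from 4 to 22. The part of this choice in the differences between groups was not tested.

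Ranked among the always-open regions, gene ends stood higher in stimulated than in unstimulated control macrophages. The lowest, median and highest library had a median member percentile of 58.9, 61.0 and 65.4 in stimulated control macrophages, against 52.8, 54.2 and 57.0 in unstimulated control macrophages. The groups did not overlap. The difference was 7.02 percentile points (61.5 ± 2.6 against 54.5 ± 1.7, SD, n = 6 each), with an exact two-sided permutation p of 0.00216, the smallest that 6 against 6 libraries allow, and an adjusted p of 0.0144 over the 20 tests of 4 measures in 5 comparisons. In diabetic macrophages the values were 53.3, 57.5 and 69.2 in stimulated libraries, against 54.3, 55.8 and 58.4 in unstimulated libraries. These groups overlapped, and the difference of 2.53 percentile points had an exact permutation p of 0.392 (adjusted p = 0.583, n = 6 each). This direction depended on the regions ranked. Region by region, the median member difference in control macrophages was 4.475 points among the always-open regions, with 977 members called higher and 266 lower. Over every region with a peak in the library it was -0.10 points, with 427 members higher and 597 lower. A library had 43963 ± 4637 such regions in stimulated and 52648 ± 3380 in unstimulated control macrophages (SD, n = 6 each). The part of this length was not tested. No share of all always-open regions is given for the ranking over every region, so its counts are no result about gene ends alone. Without stimulated diabetic replicate 5 and stimulated control replicate 6, the differences in median member percentile were 0.439 points in diabetic and 6.24 points in control macrophages. The difference between the responses, diabetic minus control, was -4.49 percentile points (exact permutation p = 0.120, adjusted p = 0.2998), and without both libraries -5.80 (exact permutation p = 0.0113, adjusted p = 0.0567). Both libraries were left out for their high member percentile, the measure tested here. The p-values without them take no account of that choice and are no test of the difference.

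**Figure D1:**
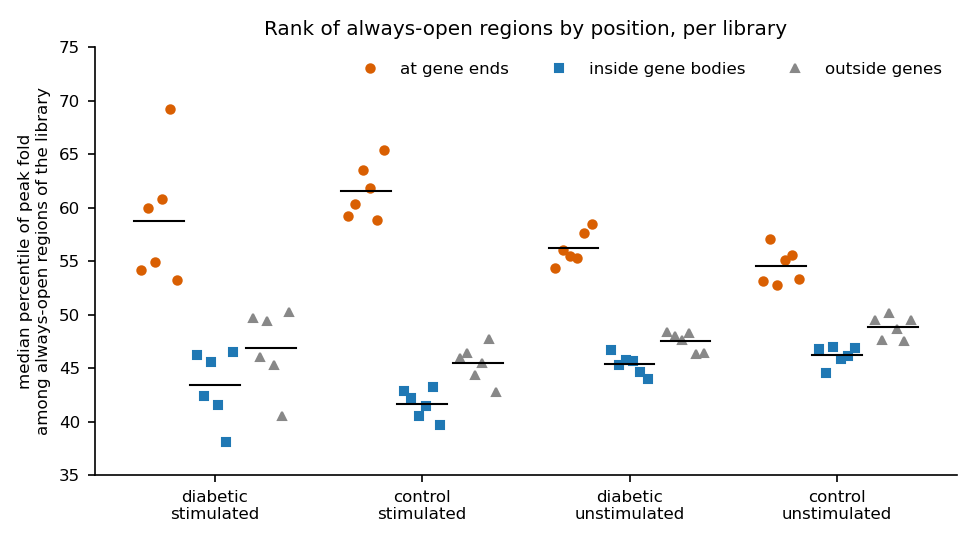
Median percentile of peak fold, per library, of always-open regions at gene ends (circles), inside gene bodies (squares) and outside genes (triangles), by group; each point is 1 library and each bar the mean of 6. Gene ends sit between 52.8 and 69.2, above both other kinds in every library.

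The share of members in the top 10% of the always-open regions behaved alike, at 14.6 ± 1.3% in stimulated and 11.2 ± 0.91% in unstimulated control macrophages (SD, n = 6 each), an exact permutation p of 0.00216 (adjusted p = 0.0144). Stimulated diabetic macrophages had 13.5 ± 3.1% and unstimulated diabetic macrophages 11.9 ± 0.96% (adjusted exact permutation p = 0.519, n = 6 each). The fold itself went the other way. The median fold of the members was 8.67 ± 0.42 in stimulated and 10.3 ± 0.41 in unstimulated control macrophages (SD, n = 6 each, exact permutation p = 0.00216, adjusted p = 0.0144), and 9.46 ± 0.59 in stimulated and 10.3 ± 0.29 in unstimulated diabetic macrophages (adjusted exact permutation p = 0.0974). The median fold of the other always-open regions was between 6.89 and 7.85 in stimulated and between 9.04 and 10.3 in unstimulated control libraries. In bulk libraries like these, fewer cells with an open region and less opening per cell cannot be told apart. Peak numbers moved with both, as the lists held 47268 ± 4535 peaks in stimulated and 55990 ± 3486 in unstimulated control macrophages, and 53703 ± 4511 in stimulated and 55522 ± 4925 in unstimulated diabetic macrophages (SD, n = 6 each). The part of peak number and library quality in the rank difference was not tested. The median summed width of the peaks of a member differed by at most 17.5 bp between any groups compared, with adjusted exact permutation p-values from 0.583 up.

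Between diabetic and control macrophages no per-library measure passed the threshold. The median member percentile was 58.7 ± 6.0 in stimulated diabetic and 61.5 ± 2.6 in stimulated control macrophages (adjusted exact permutation p = 0.534, n = 6 each), and 56.2 ± 1.5 in unstimulated diabetic and 54.5 ± 1.7 in unstimulated control macrophages (adjusted exact permutation p = 0.278). The median fold was 9.46 ± 0.59 in stimulated diabetic and 8.67 ± 0.42 in stimulated control macrophages, with an exact permutation p of 0.0303 and an adjusted p of 0.121 (n = 6 each).

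Region by region, 1372 members were called higher and 448 lower in stimulated than in unstimulated macrophages, over the mean of both phenotypes. Called higher were 16.2% of members, against 14.8% of all always-open regions, and called lower 5.28%, against 15.1%. The median member difference was 3.06 percentile points, against 0.55 over all always-open regions. The split depended on the regions ranked. Ranked over every region with a peak in the library, 733 members were higher and 753 lower. For that ranking no share of all always-open regions is given, so the counts are no result about gene ends alone. Ranked among the members alone, 611 were higher and 681 lower. Those ranks have the same mean in every library, so they cannot show a shift of the members as a whole. Without stimulated diabetic replicate 5 and stimulated control replicate 6, 1042 were higher and 441 lower. The 24 regions with the largest called differences, named next, kept their direction under each of these 3 settings. The median size of a called difference was 15.9 points for higher and -16.8 points for lower members.

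The largest increase was upstream of Serpinb1b, a serpin that blocks neutrophil-type serine proteases, at chr13:33077289-33077785, 967 bp from the gene's start. Its lowest, median and highest percentiles were 64.3, 85.9 and 97.1 in stimulated libraries, against 2.4, 14.1 and 45.7 in unstimulated libraries. The states did not overlap, and the difference was 66.8 ± 5.6 percentile points (SE), with an adjusted p of 2.01e-09. The promoter of Serpina3f, another protease inhibitor, at chr12:104214144-104214684, had 65.8, 82.4 and 93.4 in stimulated libraries, against 2.96, 20.4 and 54.4 in unstimulated libraries. It too separated the states without overlap, by 61.5 ± 5.6 percentile points (SE), with an adjusted p of 6.56e-09. Both separations hold in stimulated diabetic replicates 1, 3 and 6, whose overall rank of gene ends was like that of unstimulated libraries.

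Camp, the cathelicidin antimicrobial peptide and also a neutrophil marker, had percentiles of 23, 68.1 and 94.8 in stimulated libraries, against 3.16, 14.7 and 49.9 in unstimulated libraries at chr9:109849284-109850022. The states overlapped, and the difference was 46.8 ± 6.5 percentile points (SE), with an adjusted p of 4.55e-06. The part of other cell types in the values of Camp, Nfe2 and Cd5, genes also known from other blood lineages, was not tested. The shared start region of Cxcl16, a chemokine that also binds oxidised lipoprotein, and Zmynd15 had 12.2, 52.2 and 80.1 in stimulated libraries, against 0.931, 7.26 and 19.4 in unstimulated libraries, a difference of 43.9 ± 5.5 percentile points (SE), with an adjusted p of 9.22e-07. Stx11, a SNARE protein of secretory granules, reached 69.2, 83.1 and 90.2 in stimulated libraries, against 28.6, 40.4 and 67.6 in unstimulated libraries, without overlap, by 38.8 ± 4.7 percentile points (SE), with an adjusted p of 6.27e-07. The promoter of Fas, the death receptor, had 56.2, 67.3 and 79 in stimulated libraries, against 17.8, 27.9 and 54.3 in unstimulated libraries, also without overlap (34 ± 5.3 percentile points (SE), with an adjusted p of 2.13e-05). The other leading increases were at Styk1 (42.1 points), Kcnk10 (a potassium channel, 41), Nup85 (39.3) and Nup35 (33.6), both nuclear pore subunits, Gpr18 (a G protein-coupled receptor, 36.5) and Reck (a membrane-bound inhibitor of matrix metalloproteinases, 34.3), with adjusted p-values of at most 0.000707.

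**Figure D2:**
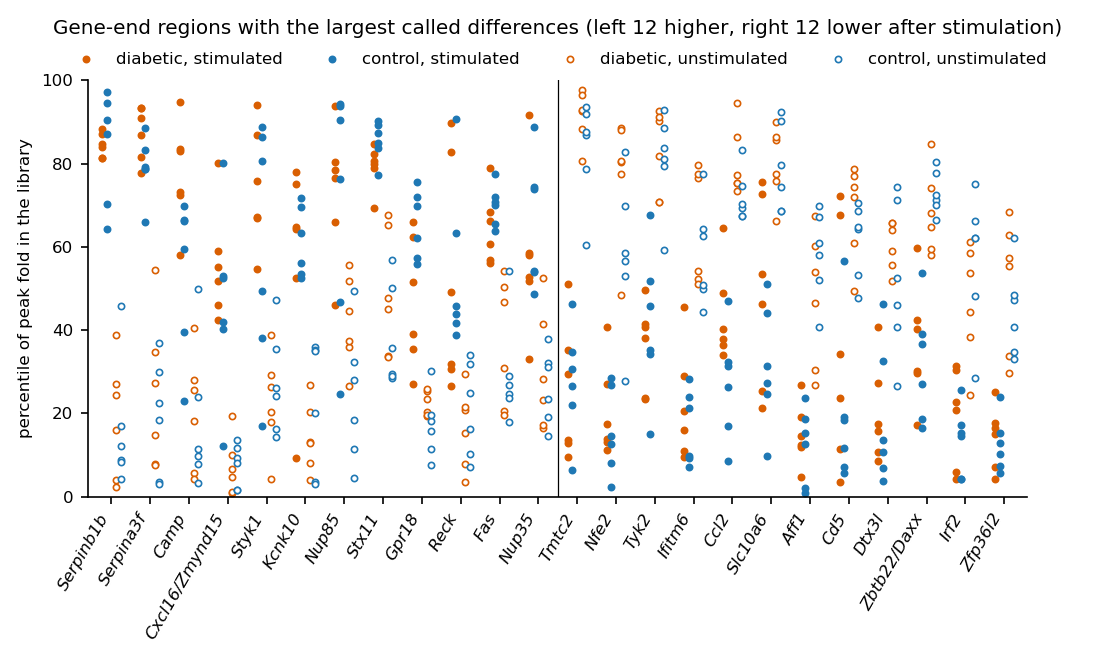
Percentile of peak fold in each library (y axis) at the 12 gene-end regions with the largest called increases (left of the line) and the 12 with the largest called decreases (right); filled points are stimulated, open points unstimulated, orange diabetic and blue control libraries. Diabetic and control points of a state lie in the same range at most of these regions, as at Serpinb1b, where all stimulated libraries are at 64.3 or above and all unstimulated ones at 45.7 or below.

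The largest decrease lay 880 bp beyond the far end of Tmtc2, an endoplasmic reticulum protein, at chr10:105186576-105186989. Its percentiles were 6.39, 28.1 and 51 in stimulated libraries, against 60.4, 90.2 and 97.6 in unstimulated libraries. The states did not overlap, and the difference was -60.8 ± 5.5 percentile points (SE), with an adjusted p of 6.56e-09. Nfe2, a transcription factor of erythroid cells and megakaryocytes, had 2.21, 14.2 and 40.8 in stimulated libraries, against 27.6, 73.6 and 88.6 in unstimulated libraries, with overlap, a difference of -49.6 ± 6 percentile points (SE), with an adjusted p of 6.22e-07. Tyk2, a JAK kinase of the type I interferon and IL-12 receptors, had 15, 39.3 and 67.7 in stimulated libraries, against 59.1, 82.7 and 92.8 in unstimulated libraries at chr9:21130895-21131678, also with overlap, a difference of -42.9 ± 5.5 percentile points (SE), with an adjusted p of 1.47e-06.

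Ccl2, a monocyte-attracting chemokine, also ranked lower, at 8.52, 35.1 and 64.4 in stimulated libraries, against 67.3, 74.9 and 94.5 in unstimulated libraries, without overlap, a difference of -40.9 ± 4.9 percentile points (SE), with an adjusted p of 6.2e-07. Zfp36l2, which promotes decay of AU-rich mRNAs, had 4.09, 14 and 25.2 in stimulated libraries, against 29.6, 47.8 and 68.3 in unstimulated libraries, again without overlap (-34.4 ± 4.7 percentile points (SE), with an adjusted p of 4.05e-06). Irf2, a repressor and activator of interferon genes, had 4.09, 16.3 and 31.4 in stimulated libraries, against 24.5, 56.2 and 75 in unstimulated libraries, with overlap, and a difference of -35.6 ± 5.4 percentile points (SE), with an adjusted p of 1.85e-05. The remaining leading decreases were at Ifitm6 (-42.5 points), Slc10a6 (a steroid sulfate transporter, -39.4), Aff1 (a subunit of elongation complexes, -39.3), Cd5 (a lymphocyte receptor, -37.5), Dtx3l (a ubiquitin ligase, -36.6) and Zbtb22/Daxx (Daxx is a histone chaperone, -36.4), with adjusted p-values of at most 0.000361. Casp1, the inflammasome protease, was chosen after its values were seen, at 14.2, 26.4 and 43.2 in stimulated libraries, against 43.5, 58.1 and 85.6 in unstimulated libraries, without overlap, a difference of -31.3 ± 5.3 percentile points (SE), with an adjusted p of 6.13e-05.

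A fold is a ratio, so its parts were looked at separately. The fold and the −log10 p-value of a peak together fix the whole number of tags at the summit and the expected tags from the surrounding chromatin, here called the local background, and both were solved for the highest peak of each always-open region in each library, 546480 in all, and ranked in the same way. Summit tags were called higher after stimulation at 1805 members (21.3%, against 19.3% of all always-open regions) and lower at 623 (7.34%, against 20.3%). Local background was called higher at 1791 members (21.1%, against 21.8%) and lower at 1171 (13.8%, against 25%). Of the 1372 members with a higher fold rank, 985 had a called higher and 2 a called lower tag rank. Of the 448 with a lower fold rank, 297 had a called lower and 9 a called higher tag rank.

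At interferon genes the fold and its parts gave different counts. The interferon response list had 40 members at 39 of its genes. In fold rank 7 (17.5%) were called higher and 10 (25%) lower, against 16.2% and 5.28% of all members, with a median difference of -3.13 percentile points, against 3.06 over all members. In summit tags 24 were higher and 3 lower (median 13.7 points, against 2.53 over all members), and in local background 37 were higher and 0 lower (median 16.4 points, against 0.71). All 10 members with a lower fold rank had a higher local background. Ranked by −log10 q-value, the list turned to 14 higher and 6 lower, with a median of 6.52 points. The list was assembled with earlier results of these data known, so its direction is a description.

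Ifit2 shows the pattern at a single promoter, at chr19:34550439-34551140. Its fold percentiles were 4.56, 14.8 and 33.5 in stimulated libraries, against 21.4, 51.6 and 69.1 in unstimulated libraries, a difference of -33.7 ± 5.7 percentile points (SE), with an adjusted p of 6.37e-05. The tags at its summit did not pass, with 17, 23 and 33 tags in stimulated and 18, 27 and 34 tags in unstimulated libraries (tag rank 2.19 ± 4.7 percentile points (SE), with an adjusted p of 0.741). The local background was 2.48, 2.77 and 4.76 tags in stimulated and 1.51, 1.85 and 2.45 tags in unstimulated libraries, and the states did not overlap (background rank 32.7 ± 2.4 percentile points (SE), with an adjusted p of 5.98e-11).

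At Oasl1, an antiviral OAS-like protein, the fold rank differed by -31.7 ± 4.8 percentile points (SE), with an adjusted p of 1.7e-05, the tag rank by 12.6 ± 4.6 percentile points (SE), with an adjusted p of 0.0293, and the background rank by 40.4 ± 2 percentile points (SE), with an adjusted p of 6.05e-14. Tyk2, described above, had a tag rank difference of -4.26 ± 3.8 percentile points (SE), with an adjusted p of 0.39 and a background rank difference of 24.3 ± 2 percentile points (SE), with an adjusted p of 2.92e-10. The genes named singly in the interferon and cytokine lists, beyond the largest differences, were chosen after their values were seen. Bst2 (tetherin, which holds budding virions), Samhd1 (a dNTP hydrolase), Trim21, Trim25, Gbp7 and Socs1 (a feedback inhibitor of JAK kinases) were the others of this list with a lower fold rank beside Dtx3l, Irf2, Ifit2 and Oasl1. Their fold differences lay between -31 at Gbp7 and -12.9 at Socs1, and their background differences between 6.65 at Gbp7 and 35.8 at Samhd1.

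Other interferon genes were higher in all 3 ranks. Zbp1, a sensor of Z-form nucleic acid, had differences of 15.8 points in fold, 54.2 in tags and 37.7 in background rank, and the exonuclease gene Isg20 had 20.2, 45.6 and 23.7. The region of Ifit1 and Ifit1bl2 had 22.5, 40.8 and 46.8, the last region with an adjusted p of at most 0.00237 in each rank. Oasl2, a neighbour of Oasl1 in the genome, ranked higher in fold by 29.6 ± 4.6 percentile points (SE), with an adjusted p of 2.23e-05, the opposite of Oasl1. The promoter of Stat2, a transcription factor of the pathway, did not pass in fold rank (-3.72 points, adjusted p = 0.128 by limma).

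**Figure D3:**
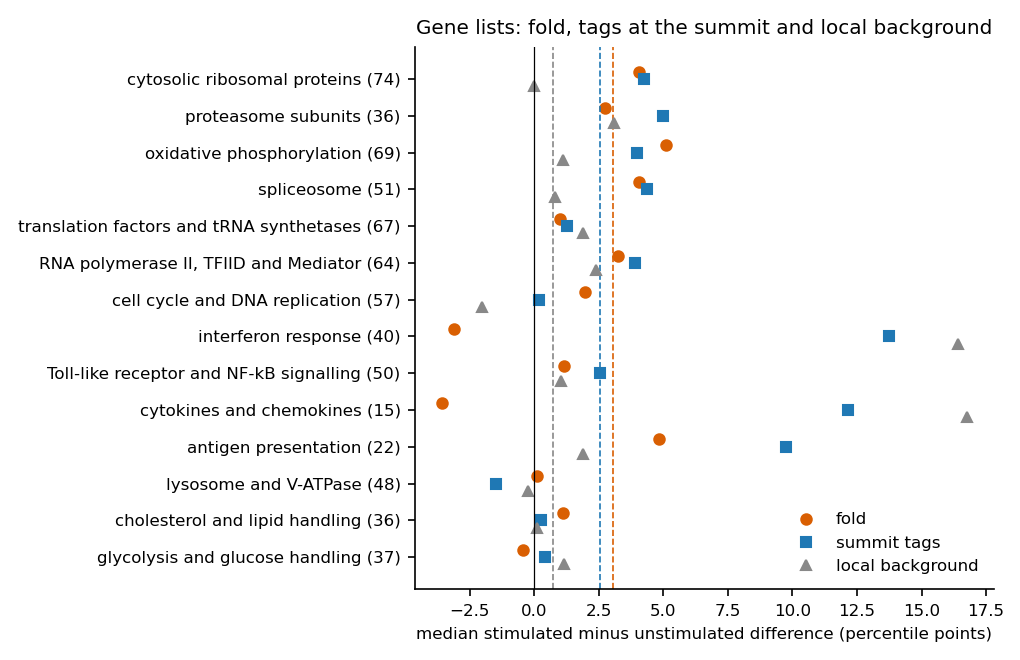
Median stimulated minus unstimulated difference in percentile points of fold (circles), summit tags (squares) and local background (triangles) for the members of each gene list, with the number of members in brackets; dashed lines are the medians over all 8489 members. Interferon and cytokine lists have tag and background medians of 12.2 to 16.8 points beside fold medians of -3.13 and -3.60.

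Cytokine and chemokine genes showed the same arrangement on 15 members, of 37 genes listed. In fold rank 5 (33.3%) were higher and 4 (26.7%) lower (median -3.60 points), in tags 9 higher and 2 lower (median 12.2) and in local background 11 higher and 0 lower (median 16.8). A first region of Il18, a cytokine which the inflammasome activates, rose by 18.2 points in fold and 52.5 in tags, Il15 by 20.8 and 42.9, and Il6 by 20.5 and 37.5. The second Il18 region, shared with Bco2, did not pass in fold rank (-5.62 points, adjusted p = 0.324 by limma) and rose by 12.2 in tags. Tnf differed by -3.6 points in fold rank (adjusted p = 0.359 by limma) but rose by 25.9 in tags and 27.9 in background. Ptgs2, the inducible cyclooxygenase, fell by 14.9 points in fold rank and rose by 9.88 in tags and 23.2 in background. At Ccl2 and Tgfb1 both fold and tag ranks fell, and the region shared by Ccl3 and Ccl4 ranked lower in fold, a difference of -17.9 ± 4.8 percentile points (SE), with an adjusted p of 0.00567. Under −log10 q ranks this list too turned to a positive median, 7.28 points.

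**Figure D4:**
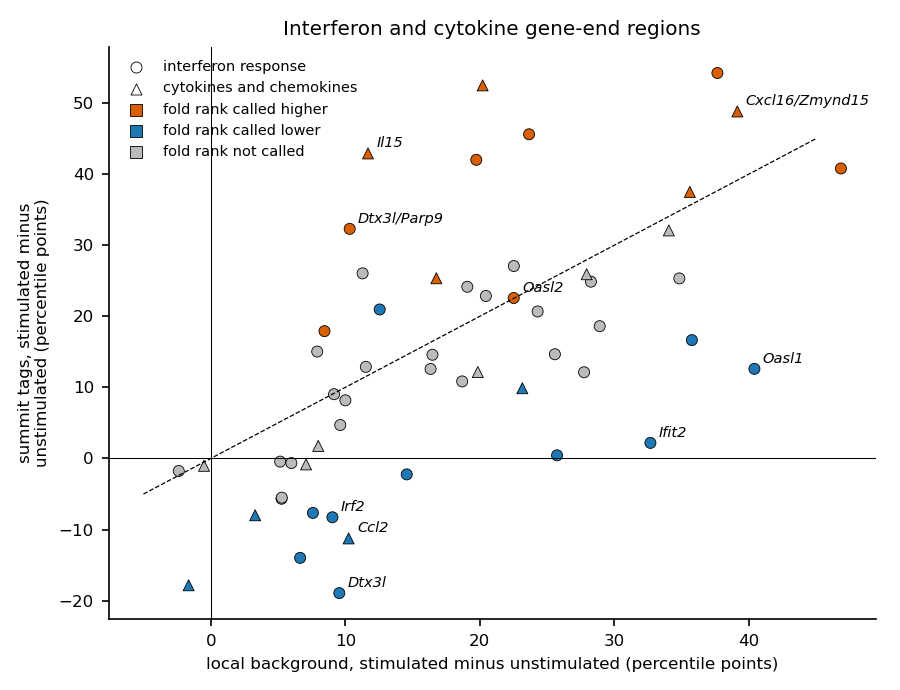
Stimulated minus unstimulated difference in the rank of summit tags (y axis) against that of local background (x axis), in percentile points, for the members of the interferon list (circles) and the cytokine list (triangles); colour gives the call in fold rank and the dashed line marks equal differences. Regions called lower in fold rank, such as Ifit2, Oasl1 and Irf2, mostly lie below the line and at positive background differences.

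Other signalling lists had fold medians nearer to that of all members. Of 50 members at Toll-like receptor and NF-kB signalling genes, 11 (22%) were higher and 4 (8%) lower in fold rank, against 16.2% and 5.28% of all members (median 1.15 points, -0.92 when ranked among members alone). Tlr3, the receptor for double-stranded RNA, led them at 37, 48.1 and 68.2 in stimulated libraries, against 5.77, 16.1 and 30.7 in unstimulated libraries, without overlap, by 33 ± 4.1 percentile points (SE), with an adjusted p of 8e-07. Tab1, an activator of the kinase TAK1, rose by 28.6 points, and the region shared by Slc35b2 and Nfkbie, which encodes an IkB protein, fell by 14.9. Nod1, a sensor of bacterial peptidoglycan chosen after its values were seen, rose by 32 ± 5.6 percentile points (SE), with an adjusted p of 9.83e-05. Antigen presentation had 22 members, 5 (22.7%) higher and 1 (4.55%) lower (median 4.82 points). The region of Tapbpl and Cd27 rose by 30.9 points and that of Rfxap, a subunit of the MHC class II regulator RFX, by 20.6. The 1 that fell was B2m, the light chain of MHC class I, at 26.8, 35.7 and 66.1 in stimulated libraries, against 49.8, 61.5 and 75.9 in unstimulated libraries, a difference of -20.8 ± 5 percentile points (SE), with an adjusted p of 0.00244.

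Housekeeping lists had called increases at shares from 13.4% to 16.7%, near the 16.2% of all members. Called decreases had shares from 0% to 3.13%, against 5.28% of all members, except for the proteasome at 8.33%. Of 74 members at cytosolic ribosomal protein genes, 11 (14.9%) were higher and 0 lower, with a median of 4.07 points. Trappc4/Rps25 rose by 28.5 points. Oxidative phosphorylation had 69 members, 11 higher and 0 lower (median 5.11 points), led by Ndufb4, a subunit of complex I, at 30.2, and by Atp5j2, of the ATP synthase, at 25.1. Spliceosome genes had 51 members, 8 higher and 1 lower (median 4.05), with Ccdc103/Eftud2 at 25.6 and Cdc26/Prpf4 at -19.4 points. For genes of RNA polymerase II, TFIID and Mediator there were 64, 9 higher and 2 lower (median 3.24), with Taf8 at 26.6 and Tbp, the TATA-binding protein, at -16.7.

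Translation factors and tRNA synthetases had 67 members, 9 higher and 2 lower (median 0.99), with the initiation factor genes Eif3g at 28.5 and Eif3b at 27.3 points and Eif2b4/Snx17 at -17.5. Wdr25/Wars fell by 13 points in fold rank but was higher by 5.26 in tag rank. The proteasome had 36 members, 6 higher and 3 lower (median 2.72), with Psmb7 at 21.5 and Psmd11 at -20.01. Cell cycle and DNA replication had 57, 8 higher and 0 lower (median 1.95), led by Pole2/Klhdc1 at 28.3 and Ap4m1/Mcm7 at 22.9. When ranked among the members alone, the medians of these 7 lists lay between -2.58 and 1.67 points, and those of translation, proteasome and cell cycle genes were below 0.

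Glycolysis and glucose handling had 37 members, 1 (2.70%) higher and 4 (10.8%) lower (median -0.44 points). Hk3, a hexokinase of myeloid cells, had 1.5, 5.68 and 25.3 in stimulated libraries, against 27, 39.2 and 49.98 in unstimulated libraries, without overlap, a difference of -32.1 ± 3.4 percentile points (SE), with an adjusted p of 7.07e-08, and Hif1a, the hypoxia factor, fell by 24.6. The 1 that rose was Akt2, by 13.7 points. Cholesterol and lipid handling had 36 members, 5 (13.9%) higher and 2 (5.56%) lower, near the 16.2% and 5.28% of all members. Abca1, which exports cholesterol, rose by 23.2 ± 4.3 percentile points (SE), with an adjusted p of 0.00019, and Nr1h2, which encodes LXR-beta, by 19 points. The scavenger receptor gene Msr1 fell by 27.7 and Soat1, which esterifies cholesterol, by 15.6. Lysosome and V-ATPase genes had 48 members, 6 (12.5%) higher and 7 (14.6%) lower. Atp6v1g1 rose by 22.9 points, and Atp6v1e1 and Mitf, a regulator of lysosome genes, fell by 22.8 and 18. Ranked among the members alone, the medians of the lysosome and cholesterol lists turned to -2.80 and -1.04 points, against 0.10 and 1.09 here. Among the macrophage markers, chosen after their values were seen, Itgam ranked lower, a difference of -25.3 ± 5.4 percentile points (SE), with an adjusted p of 0.000868, and Adgre1, Cd68/Eif4a1, Cd14 and Mertk did not pass in fold rank, with adjusted p-values from 0.173 up. In summit tag rank Itgam, Cd14 and Cd68/Eif4a1 were lower, with differences of -32.2, -22.7 and -19.5 points, Mertk was higher by 14, and Adgre1 did not pass.

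Promoter letters of members that were higher and lower after stimulation are given as shares with no test (1323 windows at 1042 higher and 345 windows at 291 lower members). The PU.1 motif was in 8.70% of windows of lower members and 2.87% of windows of higher members, against 3.09% of all member windows. The NRF1 motif was in 2.03% and 6.73%, the CREB/ATF motif in 0.870% and 4.91% and the ETS motif in 15.1% and 22.5%, for lower and higher members. The ISRE was in 8.12% of windows of lower and 9.15% of higher members, against 6.43% of all member windows, and the CCAAT of NF-Y in 46.1% and 31.0%, against 40.6%. A CpG ratio above 0.6 was reached by 65.8% of windows of lower and 84.4% of windows of higher members. In 4 groups of about 1600 members by CpG ratio, the share called lower was 8.31%, 4.94%, 3.00% and 1.94% in order of rising ratio, while the share called higher stayed between 15.01% and 17.1%. Members with an ISRE were called higher in tag rank in 32.9% of 420 cases, against 20.6% of 5978 without one.

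The calls after stimulation were split by the kind of gene end. Of the 6654 members at gene starts 16.3% were called higher and 4.78% lower, and of the 258 at the other end 13.2% were higher and 18.2% lower. Of 467 genes with 2 or more members, 33 had 2 or more called, and at 18 of these the calls went in both directions. At Dtx3l, the region that it shares with Parp9, at chr16:35938364-35939187, ranked higher by 23.8 ± 5.3 percentile points (SE), with an adjusted p of 0.00127, and the next region inside the gene, at chr16:35939539-35940134, ranked lower, a difference of -36.6 ± 5.9 percentile points (SE), with an adjusted p of 3.57e-05. Mtor, the growth-control kinase, and Klf2 were likewise chosen after their values were seen. Mtor had members at 28.8 and -16.5 points, and Klf2, a factor that restrains macrophage activation, at 23.1 and -7.98.

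The responses of diabetic and control macrophages had the same sign at 71.1% of members, against 74.3% of all always-open regions. In diabetic macrophages 157 members were higher and 117 lower after stimulation (1.85% and 1.38%, against 4.5% and 5.11% of all always-open regions). Without stimulated diabetic replicate 5 the balance turned, to 98 higher and 123 lower. Ranks among the members alone, which cannot show a shift of the members as a whole, gave 38 higher and 71 lower. In control macrophages 977 were higher and 266 lower (11.5% and 3.13%, against 9.48% and 9.84%). Here the balance turned with the regions ranked, to 427 higher and 597 lower over every region of a library, with no share of all always-open regions given. Among the members alone, which again cannot show a shift of the members as a whole, 330 were higher and 397 lower. Of the members called in either phenotype, 131 were called in both, all in the same direction, which is 47.8% of the diabetic and 10.5% of the control calls. Another 1006 of the 1112 called only in control macrophages had the same sign in diabetic macrophages. Across the 8489 members the responses had a Pearson correlation of 0.593, against 0.724 across all always-open regions, as a description of regions that share their libraries. The 1372 members called higher in the mean of both phenotypes had median differences of 11.9 points in diabetic and 19.3 points in control macrophages, and the 448 called lower had -15.7 and -18.1.

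**Figure D5:**
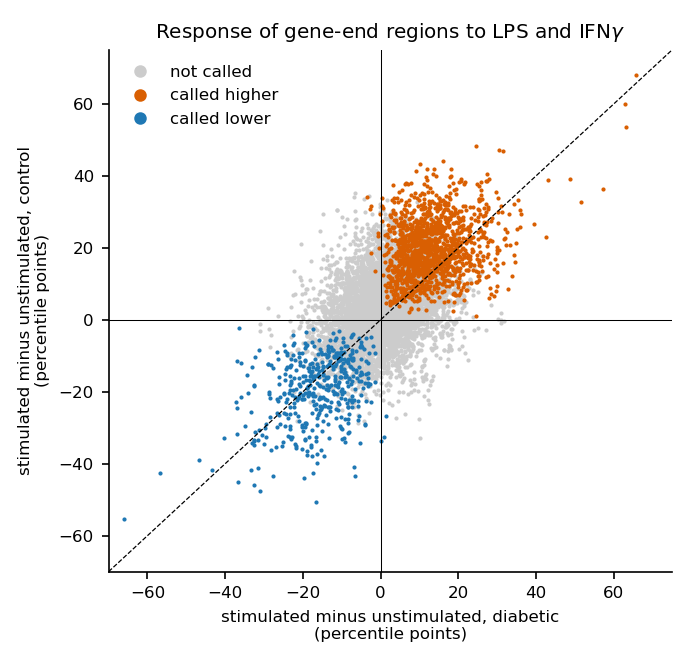
Stimulated minus unstimulated difference in percentile points at each of the 8489 gene-end regions in diabetic (x axis) and control (y axis) macrophages; orange and blue mark the 1372 regions called higher and the 448 called lower in the mean of both phenotypes, and the dashed line marks equal responses. The calls were made on the mean of both responses, which favours regions where both have the same sign, so the position of the coloured points is no measure of agreement.

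The difference between the responses passed at no member. limma called 0 higher and 0 lower (0% of all always-open regions in each direction), with 539 members (6.35%) at an unadjusted p under 0.05 and a smallest adjusted p of 0.654. A call in control and not in diabetic macrophages is thus not shown to be a difference between them. The members with the smallest p were Ipo4/Tm9sf1, Rnd1 and Pip4k2a for a more positive diabetic response, at 28.1, 25.8 and 28.1 points, and Cav2, Dennd3 and Zdhhc3/Exosc7 for a more negative one, at -41.8, -33.5 and -37.5. Each had an adjusted p of 0.654 by limma.

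Between stimulated diabetic and stimulated control macrophages, limma called 1 member higher and 1 lower (0.0118% each, against 0.0351% and 0.0132% of all always-open regions), and 695 (8.19%) had an unadjusted p under 0.05. The higher one was the region of Ipo4, a nuclear import receptor, and Tm9sf1 at chr14:55635274-55635935. Its percentiles were 87, 92.1 and 98.4 in stimulated diabetic libraries, against 36.1, 66.7 and 86.6 in stimulated control libraries. These did not overlap, and the difference was 27 ± 5.1 percentile points (SE), with an adjusted p of 0.0302. In unstimulated libraries the same region had 83.9, 92.8 and 95.6 in diabetic and 87.6, 92.7 and 96.3 in control macrophages. The lower one was 3300002I08Rik, at chr2:150362366-150363267, with 46.3, 58.8 and 76.6 in stimulated diabetic and 80.9, 90.8 and 96.2 in stimulated control libraries, a difference of -29.7 ± 5.7 percentile points (SE), with an adjusted p of 0.0302. Both calls depended on single libraries. The Ipo4/Tm9sf1 call was lost without any 1 of stimulated diabetic replicates 1, 2, 3, 4 and 6 or stimulated control replicate 4, and the 3300002I08Rik call without any 1 of stimulated diabetic replicates 1, 2, 4 and 6 or stimulated control replicates 1, 3 and 6. The name of 3300002I08Rik fell outside the rule for named genes, and it was chosen after its values were seen. Dennd3, Hdac10 and Usf2 came closest among the other decreases, at -28.5, -32.8 and -13.4 points with adjusted p-values of 0.0737 to 0.0756.

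At rest, limma called 0 members in either direction between diabetic and control macrophages (0% and 0.00439% of all always-open regions), with 343 members (4.04%) at an unadjusted p under 0.05 and a smallest adjusted p of 0.588. The smallest p-values belonged to Irf8, a macrophage lineage factor, Enpp4 and Atg16l1 among positive differences and to Amotl2, Pmepa1 and Ccdc30 among negative ones, each with an adjusted p of 0.588. Irf8 had percentiles of 42, 61.1 and 72.8 in unstimulated diabetic and 13.7, 23.7 and 53.5 in unstimulated control libraries, with overlap, a difference of 30.7 points. Atg16l1, a core autophagy protein, had 80.7, 92.8 and 95.5 in unstimulated diabetic and 63.6, 70.5 and 88.8 in unstimulated control libraries. Pmepa1, which dampens TGF-beta signalling, had 2.29, 13 and 32.9 in unstimulated diabetic and 38.2, 40.9 and 70.7 in unstimulated control libraries.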

How the data were processed

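ATAC-seq peak lists of 24 macrophage libraries were used, 6 in each of 4 groups. Per the submitters' processing notes, reads were handled with Trim Galore, FastQC 0.11.3, Bowtie2 2.2.6 and MACS2 2.1.1, on the mm10 build. The notes also name DiffBind 2.4.8. Tool settings, read totals, duplicate removal and any shift for Tn5 are not stated in the labels, so depth is unknown and no interval for it is given. The deposited peak lists hold, for each peak, the fold enrichment over local background at the summit, a linear ratio, and the −log10 p- and q-values, all as the authors' peak caller wrote them. The lowest deposited −log10 q-value was 1.30, and peaks are listed per library.

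Peaks were merged across libraries at an overlap of 1 bp, and regions found in all 24 were kept. Gene ends came from the RefSeq protein-coding genes of the mm10 (GRCm38.p6) table, at a distance of up to 1 kb. The highest fold per region and library was converted to a percentile within the library. Differences were fitted with limma 3.58.1 in R 4.3.3 on all 22770 always-open regions, with all 4 groups in 1 fit and no block. Per-library values were compared by exact permutation over 924 orders, adjusted over 20 tests, in Python 3.11.15 with numpy 2.4.6, pandas 2.3.3 and scipy 1.17.1. Summit tags and local background were solved from fold and −log10 p, with a pseudocount of 1 tag and a tolerance of 0.003 in −log10 p. Solutions were found for 100% of 546480 peaks, of which 0.100% had more than 1. The fit was also run on simulated data, with noise drawn separately for each region and library. Those data held no shift of gene ends as a whole, so they cannot show how the fit behaves under one.

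The labels do not say whether replicate numbers pair the samples, and the main fit used no pairing. The deviations of same-numbered libraries from their group means correlated between -0.0326 and 0.0482 over 12 pairs, none above 0.1. Low correlations cannot show that no mouse was shared. The named regions are the 10 with the highest mean fold and the 5 of smallest spread, the 12 largest called differences of stimulation in each direction, up to 6 of each phenotype comparison (or the 3 of smallest p where none passed) and the 2 largest in each direction of each gene list, leaving out genes named only by a Gm number or Rik symbol. The members and lists were chosen with earlier results of these data known. Some listed genes are not reported here. Coordinates are mm10, counted from 1.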

Additional observations from a re-analysis of the deposited data

Results flagged for a closer look

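Of 112 sets of 6 libraries examined at single regions, 6 held a library far from the rest of its group by Dixon's test, which marks about 1 in 20 such sets by chance. At Serpinb1b 1 unstimulated control library stood at percentile 45.7, above the others of its group. At Kcnk10 1 stimulated diabetic library stood at 9.17, and at Stx11 1 stimulated diabetic library at 69.2. At Fas 1 unstimulated control library was at 54.2, at Nfe2 1 unstimulated diabetic library at 48.3, and at Cd5 1 stimulated control library at 56.5. Among the per-library measures, the response of the members' median fold differed between diabetic and control macrophages by 0.853 (exact permutation p = 0.0385, n = 24 libraries, adjusted p = 0.128 over 20 tests). Its cause was not tested.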

How the results depend on the processing

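Most calls kept their side of the threshold. Over all alternatives, 3784 values of named regions kept direction and call, 66 gained and 133 lost it, and 19 changed sign. The settings within 500 bp and within 2 kb of a gene end change only which regions are members. All 114 values of each therefore stayed the same by construction. Fits without 1 library share all their libraries with the main fit, so the count of kept values is no independent test. The changes of sign came from ranking another measure. Under −log10 q ranks Wdr25/Wars was at 0.194, Ptgs2 at 1.33, Socs1 at 0.375, Tnf at 7.65, Adgre1 at 3.09, Samhd1 at 0.292, Gbp2 at 6.56 and Il18/Bco2 at 7.28 points. Under summit tag ranks Wdr25/Wars was at 5.26, Ptgs2 at 9.89, Socs1 at 20.96, Tnf at 25.9, Adgre1 at 5.76, Ifit2 at 2.19, Samhd1 at 16.7, Gbp2 at 12.9, Oasl1 at 12.6, Bst2 at 0.449 and Il18/Bco2 at 12.2. Ranked among the members alone, 8 named values lost their call and 4 gained one. Il6, Zbp1, Akt2 and Nr1h2 were among the 8.

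For stimulation over both phenotypes, 733 members were higher and 753 lower ranked over all regions, 611 and 681 ranked among the members alone, and 782 and 199 at regions with 1 peak in every library. In diabetic macrophages 273 were higher by −log10 q, 100 over all regions, 92 with −log10 q of at least 5, 82 (and 50 lower) with 1 peak, 38 (and 71 lower) among members alone and 413 (and 233 lower) by summit tags. Leaving out 1 library gave 98 (without stimulated diabetic replicate 5) to 204 higher. In control macrophages 427 were higher and 597 lower over all regions, 585 and 123 with 1 peak, and 330 higher among members alone. These counts are given without the share of all always-open regions under each setting.

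For stimulated diabetic minus stimulated control, lower calls were 0 by −log10 q, over all regions, with 1 peak and by tags, and 2 with lists of equal length or a −log10 q of at least 5. There were 0 in either direction by quantile-normalised log2 fold and among members alone. Without both libraries of highest member percentile, 2 were higher and 10 lower. Leaving out 1 library gave 0 to 2 higher and 0 to 13 lower, the most without stimulated diabetic replicate 5. Median summed width turned to -2 and -6.67 bp (diabetic minus control in stimulated cells, and the difference between responses) with lists of equal length. It turned to -10.1 bp (stimulated minus unstimulated, control) without both libraries.

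With a replicate block, which pairs libraries by number alone, 1251 members were higher and 420 lower after stimulation. The control differences of -1.66 in fold, 7.02 in percentile and 3.50 points in the top 10% then had an adjusted p of 0.0833 by an exact sign-flip permutation test, whose smallest p is 0.0313. The causes of these changes were not tested. Read totals are unknown, so no limit from depth is given.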
